A study of Homo sapiens with 12 samples.

Results

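The 36 genes described here encode the enzymes that make cholesterol and fatty acids and the factors that sense sterols and control their export. They were taken by symbol from a list of SREBP targets and sterol efflux regulators, and all 36 were found among the 59276 gene symbols of the deposited table. Expression was measured by RNA-seq of total RNA in JJN3, a human multiple myeloma cell line, in 12 samples that form 4 groups of 3 replicates. The DMSO group received the solvent and the MS023 group received 10 µM of MS023, an inhibitor of the type I protein arginine methyltransferases that include PRMT1, each for 3 days. The isgCtrl and iPRMT1 groups were JJN3 cells that stably expressed Cas9, carried a doxycycline-inducible guide vector with a control guide or a PRMT1 guide, respectively, and were all given doxycycline for 3 days. The iPRMT1 group is called PRMT1-KO below. It is a selected stable line with 1 guide, and whether it is a clone is not given in the sources used here. The labels do not say that replicates came from separate cultures, so p-values here measure only the spread between these samples.

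Cholesterol is built from acetyl-CoA, first along the mevalonate steps to isoprenoid units and farnesyl diphosphate, and then through squalene, lanosterol and a series of sterol intermediates. When sterols in the endoplasmic reticulum run low, the escort protein SCAP carries the precursors of the SREBP factors to the Golgi, where proteases release the active factors, and these raise transcription of the synthesis genes. INSIG proteins hold SCAP back when sterols are plentiful. The liver X receptors respond to oxidised sterols in the opposite sense and raise genes of sterol export such as ABCA1 and ABCG1. Plasma cells and the myelomas that arise from them secrete large amounts of immunoglobulin and keep an extended endoplasmic reticulum, whose membrane needs both sterols and fatty acids.

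The promoter sequences of 4 members are shown here as a description, and the expression results below do not depend on them. HMGCS1, MSMO1 and INSIG1 had the largest rises with MS023 of all members and were picked after their values were seen. SREBF2 encodes the SREBP factor most tied to sterol synthesis, and it was the only member whose promoter held the letters TCACNCCAC, the core of a sterol regulatory element. Each sequence gives the 250 bases before a RefSeq gene start on GRCh38.p14, read 5′ to 3′ on the gene's strand, and the most upstream start was used for HMGCS1, which has several. Capitals mark CCAAT, the box bound by the factor NF-Y, or its reverse complement ATTGG, and in SREBF2 also the match to TCACNCCAC. The windows lie at chr22:41832855-41833104 (plus strand) for SREBF2, at chr5:43313413-43313662 (minus strand) for HMGCS1, at chr4:165327419-165327668 (plus strand) for MSMO1 and at chr7:155297628-155297877 (plus strand) for INSIG1.
SREBF2: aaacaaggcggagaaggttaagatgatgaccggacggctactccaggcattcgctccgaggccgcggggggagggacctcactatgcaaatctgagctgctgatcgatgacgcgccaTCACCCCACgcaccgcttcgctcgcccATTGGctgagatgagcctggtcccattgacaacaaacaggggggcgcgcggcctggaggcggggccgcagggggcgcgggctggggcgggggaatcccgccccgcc
HMGCS1: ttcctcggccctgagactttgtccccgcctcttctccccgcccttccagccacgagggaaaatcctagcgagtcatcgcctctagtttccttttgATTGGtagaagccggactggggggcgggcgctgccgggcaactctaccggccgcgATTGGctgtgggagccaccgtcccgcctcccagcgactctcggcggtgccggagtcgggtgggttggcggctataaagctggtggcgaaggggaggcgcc
MSMO1: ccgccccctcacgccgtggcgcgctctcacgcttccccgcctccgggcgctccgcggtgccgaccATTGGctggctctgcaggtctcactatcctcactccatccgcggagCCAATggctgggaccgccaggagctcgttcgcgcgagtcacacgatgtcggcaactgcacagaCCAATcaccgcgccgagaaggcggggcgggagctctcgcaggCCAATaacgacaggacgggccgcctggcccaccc
INSIG1: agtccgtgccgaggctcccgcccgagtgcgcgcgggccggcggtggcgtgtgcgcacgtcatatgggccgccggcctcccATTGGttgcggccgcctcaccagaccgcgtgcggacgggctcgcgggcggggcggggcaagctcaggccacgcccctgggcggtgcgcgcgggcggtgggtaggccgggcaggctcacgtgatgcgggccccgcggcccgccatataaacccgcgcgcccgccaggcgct

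RefSeq promoters of 300 bases, from 250 before to 50 after the start, were at hand for 31 of the 36 members. On either strand, TCACNCCAC was present in 1 of these 31 members (3.23%) and in 1.39% of all 27305 genes with such a promoter. CCAAT was present in 22 of 31 members (71%), in 13 of the 15 cholesterol enzymes with a promoter (86.7%) and in 39.7% of all genes. Genes with several starts were counted once if any of their windows matched. In the SREBF2 window the matches to the 2 patterns did not overlap. A match describes letters in a window and does not show a bound site, and a window without a match says nothing about the factor.

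Levels are given in TPM (a level per transcript length, scaled to the same total in each sample), and differences are differences of mean log2(TPM+1) from limma, so that a difference of 1 is a doubling for all but low genes. A gene was called when its Benjamini-Hochberg adjusted p was under 0.05 and its absolute difference was above 0.48, over all genes with a group mean above 1 on that scale in either group. The labels give only a lower bound on the read pairs per sample, and TPM values cannot show the depth of a sample, so the depth behind each value is unknown here. Between 20988 and 22241 gene symbols had a value above 0 in a sample, and replicates correlated at 0.988 to 0.993 over genes. PRMT1 itself stood at 653 ± 18.3 TPM in DMSO, 673 ± 23.6 in MS023, 860 ± 9.15 in isgCtrl and 304 ± 4.34 in PRMT1-KO (mean ± SD, n = 3), a difference of -1.50 for PRMT1-KO against isgCtrl (limma, Benjamini-Hochberg adjusted p = 7.2e-04). Plasma cell markers such as SDC1, XBP1, IRF4, PRDM1 and TNFRSF17 were present in all groups. MZB1, however, stood at 105 TPM in DMSO but at 2.01 in isgCtrl and 1.01 in PRMT1-KO, and SLAMF7 at 9.32, 0.369 and 0.463, so the Cas9 lines had little of part of the marker set. CD38 was low in every group, at 4.96 TPM in DMSO, 2.24 in MS023, 1.33 in isgCtrl and 0.891 in PRMT1-KO. Of 12 markers of other cell types, the epithelial EPCAM was present at 61.6 to 91.1 TPM in every group, while the T cell gene CD3D and the B cell genes MS4A1 and PAX5 were at or near 0. Some of the others were uneven between replicates. In isgCtrl replicate 2, COL1A1 was at 6.06, COL3A1 at 2.33 and CD68 at 2.67 TPM, each above the other isgCtrl samples. MS023 replicate 3 had CD14 at 2.08 TPM, above the other MS023 samples. The source of this signal was not tested.

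Most of the cholesterol pathway was higher with MS023. Of the 36 members, 20 were higher and 3 were lower than in DMSO, and 13 were not called. Among all 12903 genes tested, 30.9% were called in this comparison, with 11.6% higher and 19.3% lower. The share of members that rose, 20 of 36, lay above the background and the share that fell below it. The members were chosen with earlier results of these data known, so these shares are a description and not an independent test. The median difference was 0.60 over the members and -0.11 over all genes tested. Of the 18 enzymes from ACAT2 to DHCR7, 14 were called higher and none lower, with a median of 0.92. Their summed level was 1277 ± 22.8 TPM in DMSO and 1933 ± 32.2 TPM in MS023 (SD, n = 3). Plasma cell markers moved with MS023 as well, with 4 of 8 higher and 1 lower, and their summed level was 716 to 755 TPM in DMSO and 1152 to 1197 TPM in MS023. Among them XBP1, a factor of the secretory and lipid programmes of plasma cells, was at 224 ± 4.51 TPM in DMSO and 496 ± 4.56 TPM in MS023. SLAMF7 had the largest difference of these markers, 2.37, from 9.32 ± 0.652 TPM in DMSO to 52.2 ± 3.59 TPM in MS023. The marker called lower was CD38, from 4.96 ± 0.400 to 2.24 ± 0.165 TPM. Of 12 markers of other cells, 4 were expressed enough to be tested, COL1A1 only through MS023. CD68 was higher in MS023 (mean 1.27 TPM in DMSO and 5.78 in MS023), as were PECAM1 (1.66 and 6.62) and COL1A1 (0.552 and 1.51). EPCAM was lower (91.1 and 61.6). The list summed to 95.2 to 96.4 TPM in DMSO and 76.6 to 78.8 TPM in MS023. Most of that sum was EPCAM, so its fall does not describe the other markers. The part of these genes in the results was not tested. In bulk RNA, fewer cells with a transcript and less of it per cell cannot be told apart.

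**Figure D1:**
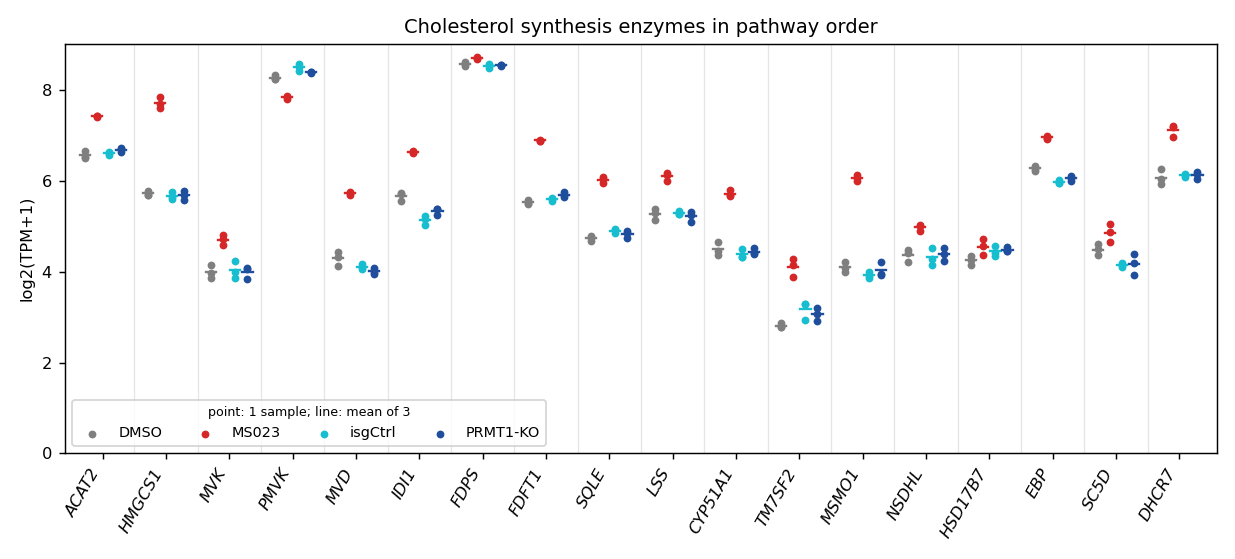
Level of each of the 18 cholesterol synthesis enzymes in log2(TPM+1) (vertical axis), in pathway order along the horizontal axis, in DMSO, MS023, isgCtrl and PRMT1-KO. Each point is 1 sample and each line the mean of 3. The MS023 points lie above the other 3 groups for most enzymes, with PMVK below them and FDPS close to them.

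In the mevalonate steps, 5 of 7 enzymes rose. HMGCS1, the cytosolic synthase that condenses acetyl-CoA with acetoacetyl-CoA, was measured at 54.3, 50.9 and 50.9 TPM in DMSO and at 205, 194 and 229 TPM in MS023. The groups did not overlap, and the difference of 1.99 ± 0.08 (SE; limma, Benjamini-Hochberg adjusted p = 6.16e-05) ranked 52 from the top of the 12903 genes. MVD, which decarboxylates mevalonate diphosphate to isopentenyl diphosphate, was at 19.2, 20.8 and 16.4 TPM in DMSO and at 51.0, 52.7 and 52.8 TPM in MS023, a difference of 1.43 ± 0.10. IDI1, the isomerase of the next step, rose from 49.8 ± 3.38 to 98.4 ± 1.05 TPM. ACAT2, the thiolase that makes acetoacetyl-CoA, rose by 0.86 and MVK, the kinase that first phosphorylates mevalonate, by 0.72. All 5 had higher values in each MS023 sample than in any DMSO sample.

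The other enzymes of these steps, PMVK and FDPS, had the highest levels of all members in DMSO. PMVK, the second kinase, was at 302, 305 and 322 TPM in DMSO and at 230, 235 and 222 TPM in MS023. The groups did not overlap and the difference of -0.43 had an adjusted p of 0.00244 (limma, Benjamini-Hochberg), but it was within the fold threshold, so PMVK was not called. FDPS, which makes farnesyl diphosphate for both sterols and protein prenylation, was at 371, 381 and 396 TPM in DMSO and at 421, 421 and 414 TPM in MS023, a difference of 0.13 with a 95% interval of -0.02 to 0.28. The whole mevalonate group summed to 922 ± 17.6 TPM in DMSO and 1204 ± 11.2 in MS023. PMVK and FDPS made up most of that sum in both groups.

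From squalene onwards, 9 of 11 enzymes rose, and all 11 had every MS023 value above every DMSO value. Over all genes tested, 23.2% had such higher values without overlap. The summed level of the 11 was 355 ± 7.12 TPM in DMSO and 729 ± 22.3 TPM in MS023, and their median difference was 1.05. MSMO1, which oxidises methyl groups at carbon C4 of the sterol ring ahead of their removal, was measured at 17.5, 15.9 and 15.1 TPM in DMSO and at 63.4, 69.1 and 65.7 TPM in MS023. Its difference of 1.97 ± 0.08 (limma, Benjamini-Hochberg adjusted p = 5.56e-05) was the largest of this group.

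The enzymes on both sides of squalene rose. FDFT1, which joins farnesyl units to squalene, was at 46.9, 45 and 43.8 TPM in DMSO and at 119, 117 and 118 TPM in MS023, a difference of 1.36 ± 0.06. SQLE, the oxygenase that makes squalene epoxide, was at 24.6, 25.7 and 26.8 TPM in DMSO and at 61.1, 65.4 and 66.7 TPM in MS023, a difference of 1.29 ± 0.07. LSS, which closes the rings to lanosterol, rose by 0.84. CYP51A1, which removes the methyl group at the C14 position, rose from 21.6 ± 2.32 to 51.8 ± 2.61 TPM. TM7SF2, a sterol reductase of the following step, was at 5.94, 5.85 and 6.33 TPM in DMSO and at 18.4, 13.7 and 16.8 TPM in MS023, a difference of 1.29 ± 0.11. Later in the pathway, DHCR7, which makes cholesterol from its dehydro precursor, rose by 1.05, the isomerase EBP by 0.68 and the dehydrogenase NSDHL by 0.60.

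HSD17B7, the keto reductase that works beside NSDHL, and SC5D, the desaturase before DHCR7, were the sterol step enzymes that were not called. HSD17B7 differed by 0.31 (adjusted p = 0.0603) and SC5D by 0.37 (adjusted p = 0.0512; both limma with Benjamini-Hochberg). SC5D values were 19.5, 23.5 and 21.5 TPM in DMSO and 32.1, 24.0 and 28.5 TPM in MS023, so that the lowest treated sample lay just above the highest control. HSD17B7 has a closely related pseudogene, HSD17B7P2, which was listed at 0.621 to 1.25 TPM, and reads of the pair could be split between them. EBP has a paralog, EBPL, which had a mean of 85.7 TPM in DMSO and 83.9 TPM in MS023, where EBP rose.

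Among the sensing factors, INSIG1 and SREBF2 rose and SREBF1 fell. INSIG1, the retention protein that is itself an SREBP target, was measured at 192, 182 and 196 TPM in DMSO and at 663, 658 and 684 TPM in MS023. This difference of 1.81 ± 0.06 (limma, Benjamini-Hochberg adjusted p = 5.52e-05) had the lowest adjusted p of all members and ranked 82 from the top of all genes. SREBF2 was at 78.9, 70.1 and 75.5 TPM in DMSO and at 111, 105 and 124 TPM in MS023, a difference of 0.59 ± 0.09. SREBF1, whose products SREBP-1a and SREBP-1c mainly serve fatty acid synthesis and whose gene is a target of liver X receptors, was at 86.6, 80.3 and 82.6 TPM in DMSO and at 48.9, 48.2 and 49.9 TPM in MS023. The 2 SREBP genes thus moved in opposite directions, each without overlap, with SREBF1 lower by a difference of -0.75 ± 0.06. SCAP differed by 0.22 and STARD4, a carrier of cholesterol between membranes, by 0.45, and neither was called. STARD4 values of the groups overlapped.

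**Figure D2:**
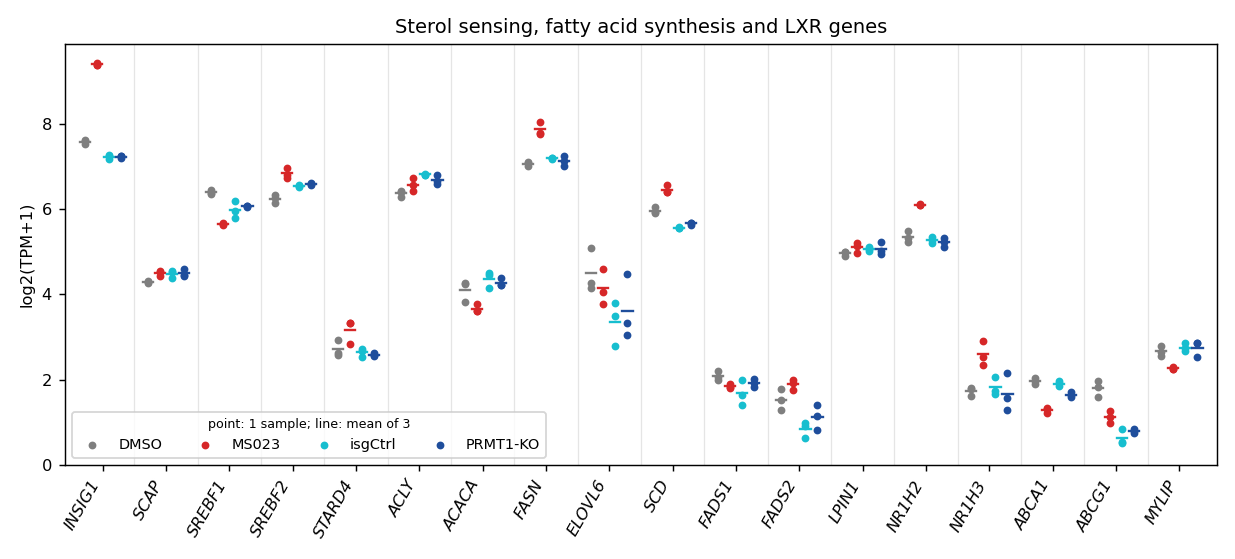
Level in log2(TPM+1) (vertical axis) of the sensing factors, the fatty acid genes and the liver X receptor genes (horizontal axis) in the 4 groups. Points are samples and lines are means of 3. INSIG1 stands highest in MS023, SREBF1, ABCA1 and ABCG1 are lower in MS023 than in DMSO, and the ELOVL6 points are widely spread in every group.

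Of the 8 fatty acid genes, 2 were called, both higher, a share near the 30.9% of all genes called in this comparison. FASN, the synthase that builds palmitate, was at 134, 128 and 136 TPM in DMSO and at 262, 215 and 220 TPM in MS023, a difference of 0.80 ± 0.09 (limma, Benjamini-Hochberg adjusted p = 0.00112). SCD, which introduces the first double bond into saturated fatty acids, was at 64.6, 58.7 and 60.4 TPM in DMSO and at 83.5, 82.9 and 93.3 TPM in MS023. Its difference of 0.49 lay at the fold threshold, and its call was lost without DMSO replicate 2 (0.46) or MS023 replicate 3 (0.44). ACACA, the carboxylase that supplies FASN with malonyl-CoA, had lower values in each MS023 sample, at 11.1, 11.1 and 12.7 TPM against 17.9, 18.1 and 13.2 TPM, with a difference of -0.45 that was not called. Among the remaining genes, none was called: ACLY, which makes cytosolic acetyl-CoA, differed by 0.20, the phosphatidate phosphatase LPIN1 by 0.14, the desaturase FADS2 by 0.37 and the desaturase FADS1 by -0.25. The elongase ELOVL6 differed by -0.36 with a 95% interval of -1.11 to 0.40, so no change could be detected against its spread. The 8 genes summed to 349 ± 2.82 TPM in DMSO and 481 ± 27.5 TPM in MS023, most of that rise from FASN.

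The liver X receptors and their export targets moved in opposite directions. NR1H2, which encodes the receptor LXR beta, was at 39.2, 36.7 and 43.9 TPM in DMSO and at 67.0, 68.0 and 67.7 TPM in MS023, a difference of 0.75 ± 0.08. NR1H3, which encodes LXR alpha, was low, at 2.50, 2.43 and 2.07 TPM in DMSO and 4.11, 4.81 and 6.48 TPM in MS023, a difference of 0.86 ± 0.15. Both receptors were higher in MS023 without overlap. ABCA1, the exporter that loads cholesterol onto apolipoprotein particles, was at 3.13, 2.71 and 2.95 TPM in DMSO and at 1.47, 1.34 and 1.51 TPM in MS023. ABCG1, which exports cholesterol to mature particles, was at 2.56, 2.03 and 2.89 TPM in DMSO and at 0.976, 1.42 and 1.18 TPM in MS023. Both exporters fell, with differences of -0.69 ± 0.07 and -0.67 ± 0.12 (limma, Benjamini-Hochberg adjusted p = 7.24e-04 and 0.00582). MYLIP, a ligase that marks lipoprotein receptors for degradation and a further liver X receptor target, had a difference of -0.40 with no overlap (adjusted p = 0.00711, limma with Benjamini-Hochberg), which stayed within the fold threshold. At such low TPM, the added 1 makes the log2 differences of ABCA1, ABCG1 and NR1H3 smaller than their ratios of TPM, which were 0.492, 0.478 and 2.20.

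In total, 32 of 36 members had no overlap between the 3 DMSO and the 3 MS023 samples, 25 of them higher and 7 lower, against 59.5% of all genes tested, with 23.2% higher and 36.3% lower. For each such member the two-sided exact permutation test gave p = 0.1, the smallest that 3 against 3 samples allow. Under scaling by median ratios, which moved the median over all genes up by 0.13, and under quantile normalization, the 23 members called kept their calls, and SC5D and STARD4 were called as well.

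None of the members was called in PRMT1-KO. Of the 35 members tested against isgCtrl, 0 were called by limma, where 0.781% of all 12285 genes were, 0.415% higher and 0.366% lower. At an unadjusted limma p under 0.05 there were 2 of the 35 members, IDI1 and ABCA1, beside 2290 of all 12285 genes. The median difference over the members was 0.01, and the differences ran from -0.26 to 0.28. The value of 0.28 was that of FADS2, which passed the expression filter only through PRMT1-KO, the group where it was higher. ABCG1 was too low for the test, at 0.563 ± 0.213 TPM in isgCtrl and 0.735 ± 0.0509 in PRMT1-KO.

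The enzymes that rose most with MS023 had close values in these lines. HMGCS1 was at 49, 48 and 53.2 TPM in isgCtrl and at 50.9, 47.0 and 54.0 TPM in PRMT1-KO, a difference of 0.02 with a 95% interval of -0.17 to 0.20. INSIG1 was at 149, 144 and 153 TPM in isgCtrl and at 145, 150 and 151 TPM in PRMT1-KO, with an interval of -0.12 to 0.12. MSMO1 differed by 0.11, with an interval of -0.12 to 0.34. For these 3 genes the intervals left out a rise of the size seen with MS023. IDI1 was at 35, 31.7 and 36.7 TPM in isgCtrl and at 37.4, 40.6 and 41.0 TPM in PRMT1-KO, a difference of 0.20 without overlap but with an adjusted p of 0.241 (limma, Benjamini-Hochberg). ABCA1 was at 2.76, 2.61 and 2.90 TPM in isgCtrl and at 2.0, 2.28 and 2.14 TPM in PRMT1-KO, a difference of -0.26 that had the lowest adjusted p of the members, 0.111 (limma, Benjamini-Hochberg).

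Not every interval was narrow. ELOVL6 ranged from 5.96 to 12.9 TPM in isgCtrl and from 7.33 to 21.2 TPM in PRMT1-KO, and its interval of -0.81 to 1.32 covers changes in either direction. The interval of NR1H3 ran from -0.74 to 0.43 and that of FADS2, which passed the expression filter only through PRMT1-KO, from -0.14 to 0.70. SREBF1 had 71.9, 61.0 and 54.6 TPM in isgCtrl and 65.7, 66.7 and 65.6 TPM in PRMT1-KO, with overlap. The summed level of the 18 cholesterol enzymes was 1293 ± 3.25 TPM in isgCtrl and 1287 ± 9.57 TPM in PRMT1-KO.

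**Figure D3:**
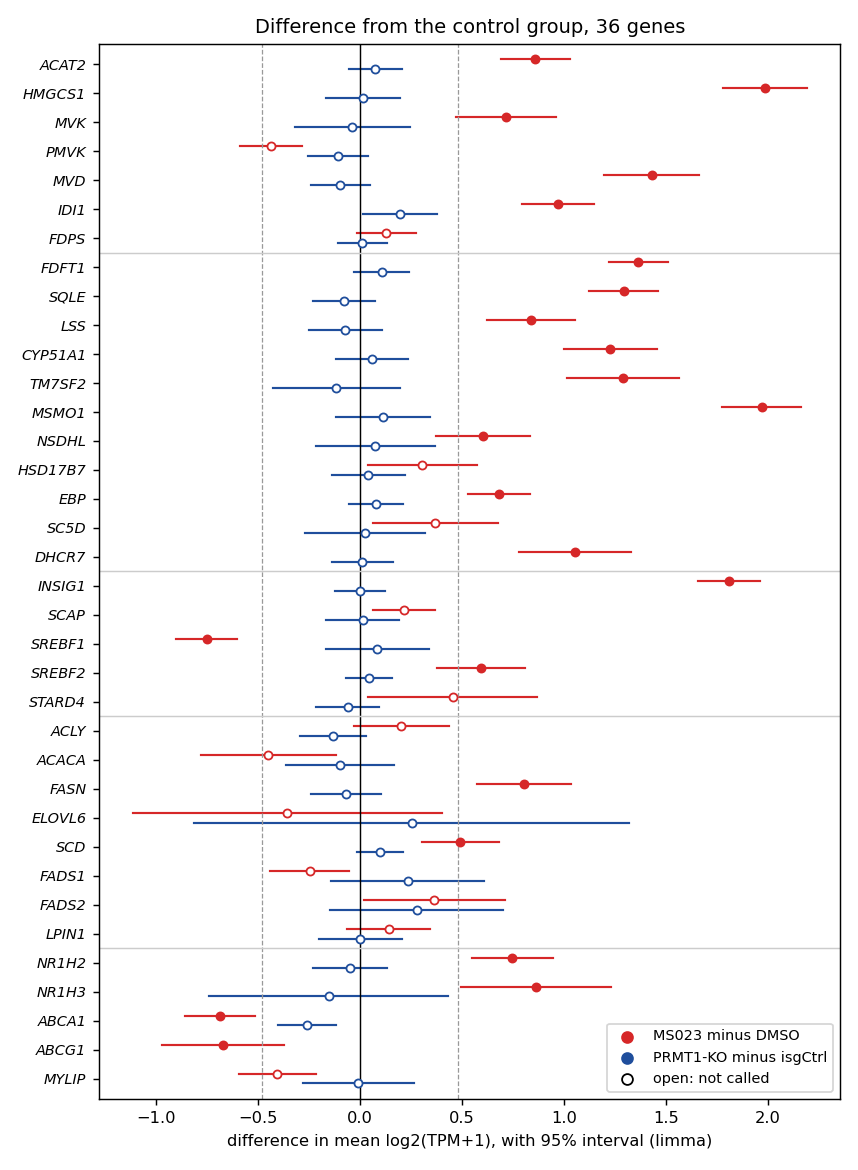
Difference of mean log2(TPM+1) for each member (limma, with 95% intervals) for MS023 against DMSO and for PRMT1-KO against isgCtrl (horizontal axis). Filled points are called and open points are not, and dashed lines mark the fold threshold of 0.48. The MS023 differences spread from -0.75 (SREBF1) to 1.99 (HMGCS1), while those of PRMT1-KO stay between -0.26 and 0.28. FADS2, at 0.28, passed the expression filter of that comparison only through PRMT1-KO.

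The difference between the 2 effects was tested directly, as the MS023 effect minus the PRMT1-KO effect in a limma fit of all 12 samples. Of the 36 members, 21 were called, 19 with a higher effect of MS023 and 2 with a lower effect, against 24.4% of all 13256 genes, with 9.69% higher and 14.7% lower. The median difference of effects was 0.54 over the members. HMGCS1 (1.97), MSMO1 (1.86), INSIG1 (1.81) and MVD (1.53) had the largest values. SREBF1 (-0.84) and ABCG1 (-0.83) were the 2 with a lower effect. ABCG1 passed the expression filter of this test only through the DMSO and MS023 groups, and it was below it in both Cas9 lines. SCD, at 0.40, and ABCA1, at -0.43, were within the fold threshold here, with adjusted p of 0.00487 and 0.00339 (limma, Benjamini-Hochberg). MS023 and the guide differ as agents, in the enzymes they reach and in the control cells used, and these cannot be told apart in this comparison.

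The 2 control groups were also compared, since they set the level from which each effect starts. The isgCtrl cells differ from the DMSO cells in Cas9, the guide vector and doxycycline together. They also differ in the cell sorting and puromycin selection by which the line was made, and all of these cannot be told apart. This comparison shares its DMSO samples with the MS023 comparison and its isgCtrl samples with that of PRMT1-KO. Of the 36 members, 4 were called and all were lower in isgCtrl. Over all 12661 genes, 13.9% were called, with 7.23% higher and 6.70% lower. Among the members called, ABCG1 and FADS2 passed the expression filter only through DMSO, the group where they were higher. ABCG1 was at 0.457, 0.423 and 0.808 TPM in isgCtrl, below the DMSO values given above, a difference of -1.16 ± 0.13 (limma, Benjamini-Hochberg adjusted p = 0.00265). IDI1 had a difference of -0.52 and FADS2 of -0.69, with isgCtrl values of FADS2 at 0.974, 0.887 and 0.541 TPM against 1.88, 1.44 and 2.44 TPM. ELOVL6 was at 16.7, 32.9 and 18.2 TPM in DMSO and at 5.96, 12.9 and 10.3 TPM in isgCtrl, a difference of -1.14 whose adjusted p was 0.0491 (limma, Benjamini-Hochberg). That call was lost in 9 of 14 alternative settings, among them the omission of any single replicate. The FADS2 call was lost in 4 of 13, with the replicate number as a block and without DMSO replicate 1, isgCtrl replicate 2 or isgCtrl replicate 3, where the adjusted p was 0.0669, 0.056, 0.0503 and 0.055 (limma, Benjamini-Hochberg). The IDI1 call was lost without isgCtrl replicate 2 (-0.46).

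The summed levels of the cholesterol enzymes were close in the 2 control groups. The 18 cholesterol enzymes summed to 1277 TPM in DMSO and 1293 TPM in isgCtrl, and the 11 sterol step enzymes to 355 and 345 TPM. Single enzymes within the sum of 18 moved in both directions, with PMVK at 310 TPM in DMSO and 363 TPM in isgCtrl and IDI1 at 49.8 and 34.5 TPM. The sensing factors summed to 372 TPM in DMSO and to less, 330 TPM, in isgCtrl, without overlap. INSIG1 was lower in isgCtrl without overlap, by a difference of -0.35 that stayed within the fold threshold, and SREBF1 likewise, by -0.41. ACLY was higher without overlap, by 0.44. In PRMT1-KO the sterol step enzymes summed to 353 ± 1.79 TPM and the sensing factors to 336 ± 3.46 TPM, against 860 ± 25.8 TPM for the sensing factors in MS023.

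**Figure D4:**
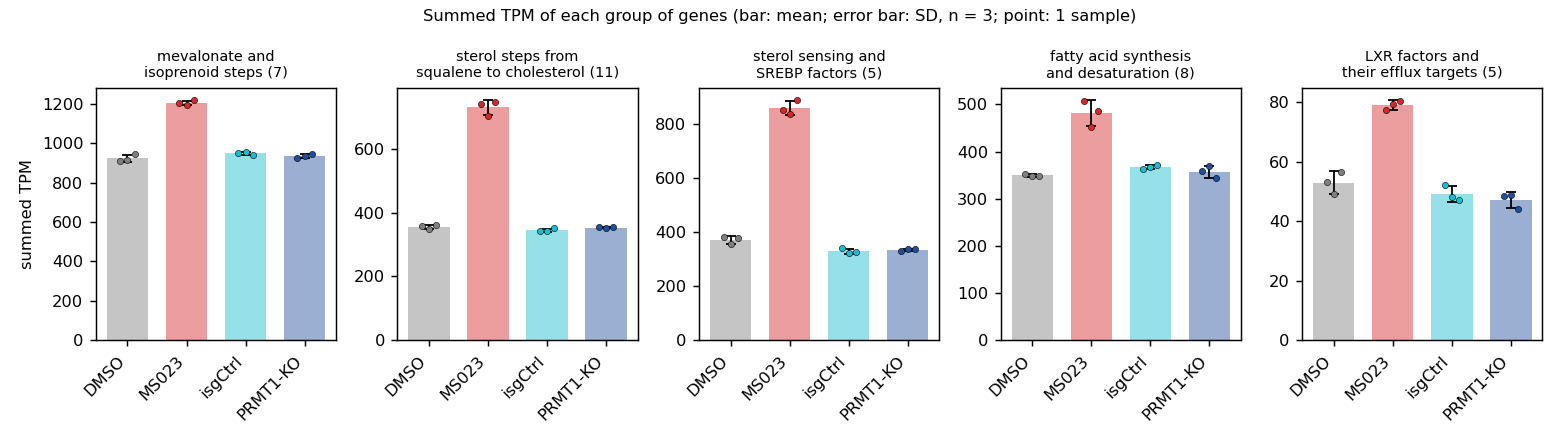
Summed TPM of each role group (vertical axis, starting at 0) in DMSO, MS023, isgCtrl and PRMT1-KO. Bars are means, error bars SD (n = 3) and points samples. Sterol steps reach 729 TPM and sensing factors 860 TPM in MS023, against 345 to 355 TPM and 330 to 372 TPM in the other groups.

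Genes around the pathway were followed in 6 further lists. Of their 74 genes, 68 were tested with MS023, of which 9 were higher and 8 lower, beside 11.6% higher and 19.3% lower over all genes tested. Their median difference was 0.00, beside -0.11 over all genes. Among the processing factors of SREBP, C12orf49, which helps to activate the SREBP protease, rose by 0.57, while ERLIN2, a scaffold of sterol-regulated degradation, fell by 0.96. Among the further SREBP and lipogenic targets, the aldolase gene ALDOC rose by 1.16 and the desaturase gene SCD5 fell by 1.06, and 1 of 13 was called in each direction. Of the 13 users of isoprenoids, 2 were lower, with COQ2, which attaches the tail of coenzyme Q, lower by a difference of -1.09, and none was higher. In sterol transport and esterification, 4 of 10 tested genes were higher and none was lower, led by SCARB1, a receptor for lipoprotein cholesterol (1.03). Among liver X receptor partners and targets, the lipid transfer gene PLTP was higher (0.63) and the partner receptor RXRA lower (-0.53). In fatty acid oxidation, 2 of 12 were higher and 3 lower, with the carnitine carrier SLC25A20 at 0.57 and the dehydrogenase HADH at -1.79.

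In PRMT1-KO, 65 of these 74 genes were tested and 1 was called, beside 0.781% of all genes tested. NPC2, which carries cholesterol out of the lysosome, was higher than in isgCtrl by 0.50 (limma, Benjamini-Hochberg adjusted p = 0.0468). This call lay at both thresholds and was lost in 9 of 14 alternative settings, among them the omission of any single replicate and the replicate block (adjusted p = 0.168, limma with Benjamini-Hochberg). NPC2 was also higher with MS023 than in DMSO, by 0.90, and it was lower in isgCtrl than in DMSO, by a difference of -0.98. Between the 2 control groups, 7 of 68 of these genes were higher and 7 lower in isgCtrl, beside 7.23% higher and 6.70% lower over all genes tested. The called genes with the largest rise of their list included the lipogenic regulator MID1IP1 (0.58), the prenyltransferase subunit FNTA (0.50), SCARB1 (0.63) and the carnitine transferase CPT2 (0.52). Those with the largest fall included the mitochondrial carboxylase ACACB (-1.33), NPC2 and the dehydrogenase ACADVL (-0.69). ACACB passed the expression filter only through DMSO.

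The effects of MS023 and PRMT1-KO on these lists differed for 12 of the 68 genes tested, with 5 higher and 7 lower for MS023, beside 9.69% higher and 14.7% lower over all genes tested. Among the called genes, the highest value of its list was that of the SREBP protease MBTPS1 (0.49), ALDOC (0.99), SCARB1 (1.21) and PLTP (0.94). In the list of MBTPS1, the highest value with genes not called included was 0.51. The lowest was that of ERLIN2 (-0.74), SCD5 (-0.96), COQ2 (-1.01) and HADH (-1.54). Of the 13 further SREBP and lipogenic targets, 3 were called here, namely ALDOC, SCD5 and the acetyl-CoA synthetase ACSS2, which had a value of -0.74. ACSS2 passed the expression filter only through DMSO and MS023.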

How the data were processed

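RNA-seq was done on 12 JJN3 samples in 4 groups of 3, mapped from their labels. The authors trimmed reads with Trimmomatic, aligned them to hg38 with GENCODE V35 by STAR and quantified them with Salmon, and they deposited 1 table of log2(TPM+1) per gene symbol. These deposited log2 values were used as they stand. Library strandedness is not given in the sources used here, and exons of 18 of the 36 members overlap an antisense gene in GENCODE v44, whose reads may not be told apart. Each comparison was fitted on its own 6 samples, and the difference between effects on all 12, with limma 3.58.1 (R 4.3.3, no eBayes trend, 95% intervals). The p-values were adjusted by Benjamini-Hochberg over all genes tested. The use of limma and the thresholds for a call, 0.05 and 0.48, follow the study's methods, which name a false discovery rate without its procedure. In simulated data, 200 genes with a mean log2(TPM+1) above 2 were given log2 changes of 1 or 2, up or down. For MS023 against DMSO, 92% of the changes of 1 and 100% of those of 2 were recovered (12626 genes, 6 false calls). The shares were 93% and 100% for PRMT1-KO against isgCtrl (12240 genes, 8 false calls). They were 81% and 100% for isgCtrl against DMSO (12418 genes, 9 false calls). For the difference between effects they were 90% and 97% (12680 genes, 10 false calls). Recovery of changes below 1, or in genes with a lower mean, was not tested. The members and lists were chosen with earlier results of these data known. All members are named, grouped by role, and in each further list the called gene with the largest rise and the one with the largest fall, except a few that are not reported here. C12orf49 is listed under its older symbol. For 5 members (ABCG1, ACAT2, FASN, FDFT1 and SQLE) no promoter was used. Alternatives changed the expression filter, pseudocount, scaling, trend, replicate block, samples fitted, fold threshold and replicates.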

Additional observations from a re-analysis of the deposited data

Results flagged for a closer look

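For 21 members the effect of MS023 against DMSO differed from that of PRMT1-KO against isgCtrl in a test of the difference itself (limma on all 12 samples, Benjamini-Hochberg adjusted p under 0.05 and absolute difference above 0.48). Values are the MS023 effect minus the PRMT1-KO effect in log2(TPM+1). In the mevalonate steps the difference was 1.97 for HMGCS1, 1.53 for MVD, 0.78 for ACAT2, 0.77 for IDI1 and 0.75 for MVK. In the sterol steps it was 1.86 for MSMO1, 1.41 for TM7SF2, 1.37 for SQLE, 1.26 for FDFT1, 1.17 for CYP51A1, 1.04 for DHCR7, 0.91 for LSS, 0.60 for EBP and 0.53 for NSDHL. Among the sensing factors it was 1.81 for INSIG1, 0.55 for SREBF2 and -0.84 for SREBF1. FASN, at 0.87, was the fatty acid gene that differed. Among the liver X receptor genes it was 1.02 for NR1H3, 0.80 for NR1H2 and -0.83 for ABCG1. ABCG1 passed the expression filter only through DMSO and MS023. The call of NSDHL was lost in 5 of 19 alternative settings and that of NR1H3 in 6 of 19. What sets the effects apart was not tested.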

How the results depend on the processing

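With MS023, leaving out single replicates gave 22 to 25 members called against 23, and an absolute log2 difference above 1 left 9. For isgCtrl against DMSO, 4 members became 13 with no fold threshold, 2 above a difference of 1, 2 when each sample had to pass the expression filter, and 1 to 5 without single replicates. For the difference between effects, 21 became 10 above a difference of 1, and 20 to 22 without single replicates. PRMT1-KO called 0 members in every alternative run. Over all genes, PRMT1-KO calls fell from 96 to between 2 and 21 without single replicates and to 0 with the replicate block. Correlations of same-numbered samples ran from -0.23 to 0.10, so any pairing by replicate number was weak. With MS023 they were 0.02, 0.07 and 0.10, and 5 of 6 samples correlated best with their own number. That held for 2 of 6 samples in the PRMT1-KO comparison and 0 of 6 for isgCtrl against DMSO. With the number as a block, 23 members were called with MS023, 0 in PRMT1-KO, 3 for isgCtrl (FADS2 was lost, adjusted p = 0.0669 by limma with Benjamini-Hochberg) and 22 for the difference between effects. The PRMT1 difference kept its size and had an adjusted p of 0.149. Median-ratio scaling changed the share of lower calls over all genes from 62.4% to 45.1% with MS023 (49.9% by quantiles), from 46.9% to 31.2% in PRMT1-KO (31.5% by quantiles), from 48.1% to 65.9% for isgCtrl and from 60.3% to 45.5% for the difference between effects. The cause was not tested. The unknown depth limits low genes such as ABCG1 and NR1H3.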
